A study of Mus musculus with 20 samples.

Results

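The 6 regulators of skeletal muscle formation described here were followed through 8 stages of mouse development: Myf5, Myod1, Myog and Myf6, which are the myogenic regulatory factors, and Six4 and Eya1, which act upstream of them. The members were the probe sets annotated with one of these symbols alone, 12 of the 45101 probe sets of the array. They stand for 6 of 18193 genes, and all 6 were among the 14044 genes that passed the filter on low signal and were tested. Gene expression had been measured in whole wild-type C57BL/6 mouse embryos kept specific-pathogen free, with 3 arrays at each daily stage, E7.5 through E10.5, and 2 arrays at each stage of every other day, E12.5 through E18.5. The amnion was excluded, both sexes were included, and the RNA of each sample was a pool from several embryos. Every sample went onto 1 array of the type Affymetrix Mouse Genome 430 2.0. No stage carried a mutation or a treatment, so that age was the planned difference between the groups. The arrays also formed 2 sets along the series, as described below.

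Myf5, Myod1, Myog and Myf6 are basic helix-loop-helix proteins that pair with E proteins and bind E-boxes in muscle genes. Myf5 and Myod1 commit precursor cells of the somite to muscle, Myog drives their differentiation and fusion, and Myf6, also called Mrf4, acts both early in the somite and late in the growing muscle fibre. Six4 is a homeodomain factor that binds MEF3 motifs, and Eya1 is a transcriptional coactivator and phosphatase that Six4 and its relatives recruit. Six4 and Eya1 are also used in sensory placodes, cranial ganglia and kidney, so their signal in a whole embryo has several sources.

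The promoters of Myog and Six4 are shown because each holds a motif read by members of the set. They are the 250 bases before the RefSeq gene start in GRCm38.p6, written 5′ to 3′ on the strand of the gene, at chr1:134289754-134290003 on the plus strand for Myog and at chr12:73113246-73113495 on the minus strand for Six4. Capitals mark matches to the E-box CANNTG and to the MEF3 motif TCAGGTT, searched on both strands.
Myog: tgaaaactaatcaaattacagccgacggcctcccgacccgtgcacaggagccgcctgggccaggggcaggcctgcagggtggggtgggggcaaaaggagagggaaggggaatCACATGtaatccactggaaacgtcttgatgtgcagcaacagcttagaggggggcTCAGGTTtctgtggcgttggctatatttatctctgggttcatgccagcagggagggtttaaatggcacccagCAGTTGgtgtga
Six4: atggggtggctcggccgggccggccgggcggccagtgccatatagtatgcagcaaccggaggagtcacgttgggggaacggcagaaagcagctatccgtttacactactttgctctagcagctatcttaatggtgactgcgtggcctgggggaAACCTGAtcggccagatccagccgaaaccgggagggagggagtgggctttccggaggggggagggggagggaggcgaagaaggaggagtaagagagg
The Myog window held 2 E-boxes, CACATG at 138 to 133 bases and CAGTTG at 12 to 7 bases before the start, and 1 MEF3 match at 84 to 78 bases before it. The Six4 window held 1 MEF3 match on the opposite strand, at 97 to 91 bases before the start, and 0 E-boxes. The matches did not overlap each other. Among 32851 promoter windows of the same length, 31.8% held at least 2 E-boxes, 66.2% held at least 1, and 3.49% held a MEF3 match. A window at a second annotated start of Six4 and the window of Myf5, at chr10:107486135-107486384 on the minus strand, had neither motif. Sequences were matched for 3 of the 6 genes, and those of Myod1, Myf6 and Eya1 were not used here. Myf5 and Myf6 are neighbours on 1 chromosome, with 0 genes between them in the RefSeq gene table.

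Values are MAS5 signals, a brightness per probe set on a linear scale, and the levels of different probe sets cannot be set against each other. Changes are differences of log2(signal + 25.9), later stage minus earlier, with the SE of a limma fit over all 20 arrays, and this scale understates the change of a gene with low signal. A gene was called, and is said to have risen or fallen, if its adjusted p was under 0.05 and its change 2-fold or more. Stage means carry the SD, with n = 3 for a stage of the early set and n = 2 for a later one, and precision is limited by these few arrays. A larger number of muscle cells and more RNA of a gene per cell cannot be told apart in whole embryos. The 8 arrays from E12.5 on had a median signal of 156 to 178, against 67.2 to 91.1 for the 12 earlier arrays. The poly-A control probe sets averaged 327 to 480 on the late arrays, against 9.95 to 31.9 on the early ones. The arrays thus formed 2 sets that divide between E10.5 and E12.5, and across that division stage and array set cannot be told apart. Arrays of a stage correlated at r = 0.977 to 0.991 over all genes tested.

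Eya1, the coactivator, was already above the array median at E7.5 and rose at E8.5. Its signals were 124, 108 and 125 at E7.5, then 685, 705 and 611 at E8.5, 996, 1076 and 925 at E9.5, and 815, 1169 and 869 at E10.5. On the late arrays they were 707 and 793 at E12.5, 523 and 446 at E14.5, 386 and 518 at E16.5, and 400 and 392 at E18.5. Every array from E8.5 on lay above every array of E7.5, and the arrays of E9.5 and E10.5 lay above those of all other stages. The change of E8.5 against E7.5 was 2.26 ± 0.13 with an adjusted p of 5.6e-11. The next step, E9.5 against E8.5, was 0.57 ± 0.13 with an adjusted p of 0.0057, short of 2-fold although the arrays did not overlap. E18.5 stood at 396 ± 5.79, against 999 ± 75.3 at E9.5, a fall of 2-fold or more. The change was -1.28 ± 0.15 with an adjusted p of 2.3e-07. Stage and array set cannot be told apart in this comparison. These values are of the probe set that stood for Eya1. The probe set 1421727_at was also lower, at 85.5 ± 32.6 at E18.5, against 195 ± 28.2 at E9.5. The probe set 1443117_at went the other way, at 122 ± 32.6 at E18.5, against 39.1 ± 17.2 at E9.5.

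Six4, the homeodomain factor, had its highest signals from E8.5 to E10.5 and its lowest at the end, on the probe set that stood for it. Another of its probe sets, 1439753_x_at, averaged 502 ± 12.3 at E12.5, against 460 ± 70.5 at E9.5 and 458 ± 81.9 at E10.5. The values that follow are of the first. The arrays gave 558, 526 and 389 at E7.5, 941, 953 and 930 at E8.5, 816, 863 and 814 at E9.5, and 968, 838 and 892 at E10.5. They gave 499 and 486 at E12.5, 251 and 432 at E14.5, 255 and 229 at E16.5, and 205 and 239 at E18.5. All 9 arrays of E8.5 to E10.5 were higher than all others, while E12.5 overlapped E7.5, and E16.5 overlapped E14.5 as well as E18.5. The change of E8.5 against E7.5 was 0.92 ± 0.15 with an adjusted p of 5.4e-05 and fell just short of the 2-fold limit. Without the first E7.5 array it was 1.01 and was called. Against E12.5, Six4 fell by 1.07 on the log2 scale at E18.5 (SE 0.18, adjusted p = 6.5e-05), a call that ended without the first E18.5 array, at -0.97, and with a pseudocount 4 times larger, at -0.87.

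Myf5, the earliest of the 4 factors in the somite, had a low signal at E7.5 and was on a plateau from E10.5. Its signals were 38.8, 4.89 and 0.895 at E7.5, 66.1, 35.0 and 80.5 at E8.5, 91.9, 117 and 166 at E9.5, and 177, 215 and 308 at E10.5. They were 299 and 281 at E12.5, 340 and 201 at E14.5, 351 and 257 at E16.5, and 196 and 229 at E18.5. E8.5 overlapped E7.5 in 1 array on each side, E9.5 lay wholly above E8.5, E10.5 lay wholly above E9.5, and from E10.5 on all arrays lay between 177 and 351. Myf5 rose at E8.5 against E7.5 by 1.16 ± 0.31 with an adjusted p of 0.00555. That call rested on single arrays: the change was 0.92 without the third E7.5 array and 0.99 without the third E8.5 array, both under 2-fold. It also ended when the arrays of the 2 stages were fitted alone (adjusted p = 0.052) and with a pseudocount 4 times larger, at 0.48. The steps to E9.5, 0.81 ± 0.31, and to E10.5, 0.78 ± 0.31, did not pass (adjusted p = 0.085 and 0.089), whereas E10.5 against E8.5 did, at 1.59 ± 0.31 with an adjusted p of 3.6e-04. No step after E10.5 was called.

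Myod1, the second commitment factor, stayed below the array median on every array up to E9.5. The signals were 8.96, 37.6 and 34.2 at E7.5, 10.3, 40.7 and 35.7 at E8.5, 19.2, 56.6 and 49.9 at E9.5, and 128, 104 and 146 at E10.5. They were 673 and 661 at E12.5, 612 and 863 at E14.5, 521 and 590 at E16.5, and 463 and 375 at E18.5. The first 3 stages overlapped in part, E10.5 lay above them, and every late array was more than 2-fold above every E10.5 array. In each of the first 3 stages the first array was the lowest of its stage, and the other 2 were above the 25th percentile of their arrays. Myod1 rose at E10.5 against E9.5 by 1.20 ± 0.28 with an adjusted p of 0.00424. Without the first E9.5 array that change was 0.93 and was not called, and it was 0.66 with a pseudocount 4 times larger. Myod1 rose again at E12.5 against E10.5, by 2.20 ± 0.31 with an adjusted p of 1.1e-05, and its mean was highest at E14.5, at 738 ± 178. E18.5 averaged 419 ± 62.3, against 667 ± 8.24 at E12.5, and this change of -0.65 ± 0.34 did not pass (adjusted p = 0.12).

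Myog, the differentiation factor, was below the 25th percentile of the array on all 3 arrays of E8.5 and rose at the next 3 steps. Its signals were 17.1, 46.0 and 5.92 at E7.5, 4.20, 5.54 and 17.6 at E8.5, 153, 119 and 155 at E9.5, and 528, 380 and 370 at E10.5. They were 2083 and 2003 at E12.5, 2649 and 2728 at E14.5, 2677 and 3085 at E16.5, and 1672 and 1431 at E18.5. At E9.5, E10.5 and E12.5 the arrays of the stage lay wholly above those of the stage before, and E18.5 lay below the other 3 late stages. The rises were 2.28 ± 0.22 at E9.5 against E8.5 (adjusted p = 3.3e-07), 1.42 ± 0.22 at E10.5 against E9.5 (adjusted p = 1.3e-04) and 2.21 ± 0.25 at E12.5 against E10.5 (adjusted p = 7.5e-07). At E18.5 the mean was 1552 ± 170, against 2881 ± 289 at E16.5. That change of -0.88 ± 0.27 had an adjusted p of 0.031 and stayed under 2-fold.

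Myf6 gave a low early rise and a late one. The arrays read 1.85, 1.57 and 36.5 at E7.5, 8.27, 2.51 and 2.39 at E8.5, 61.3, 68.1 and 32.0 at E9.5, and 55.8, 66.2 and 52.8 at E10.5. They read 56.0 and 38.5 at E12.5, 176 and 173 at E14.5, 547 and 494 at E16.5, and 1049 and 1018 at E18.5. The 3 stages from E9.5 to E12.5 overlapped, 1 array of E7.5 reached into them, and at E14.5, E16.5 and at the last stage the arrays lay wholly above those of the stage before. No array before E14.5 gave Myf6 a signal above the array's own median. Myf6 rose at E9.5 against E8.5 by 1.37 ± 0.28 with an adjusted p of 0.00164, and by 0.54, under 2-fold, with a pseudocount 4 times larger. It rose at E14.5 against E12.5 by 1.46 ± 0.35 (adjusted p = 0.00825) and at E16.5 against E14.5 by 1.45 ± 0.35 (adjusted p = 0.00997), and the last step of 0.96 ± 0.35 did not pass (adjusted p = 0.068). The call at E14.5 ended without the second E12.5 array (1.29) and without the first (1.45) or the second (1.47) E14.5 array. The call at E16.5 ended without any 1 of its 4 arrays. That change was 1.46 and 1.44 without the first and the second E14.5 array, and 1.38 and 1.52 without the first and the second E16.5 array. All these changes stayed above 2-fold. Each of these fits leaves 1 array in a stage, so the lost calls cannot tell lower precision from dependence on single arrays. The call at E14.5 also ended after quantile normalization (1.21, adjusted p = 0.067) and with a pseudocount 4 times smaller (1.77, adjusted p = 0.087) or 4 times larger (0.88, under 2-fold), and the call at E16.5 with a pseudocount 4 times smaller (1.54, adjusted p = 0.14). The change over the whole late series, E18.5 against E12.5, was 3.87 ± 0.35 with an adjusted p of 1.6e-08, and it was called under every alternative run.

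**Figure D1:**
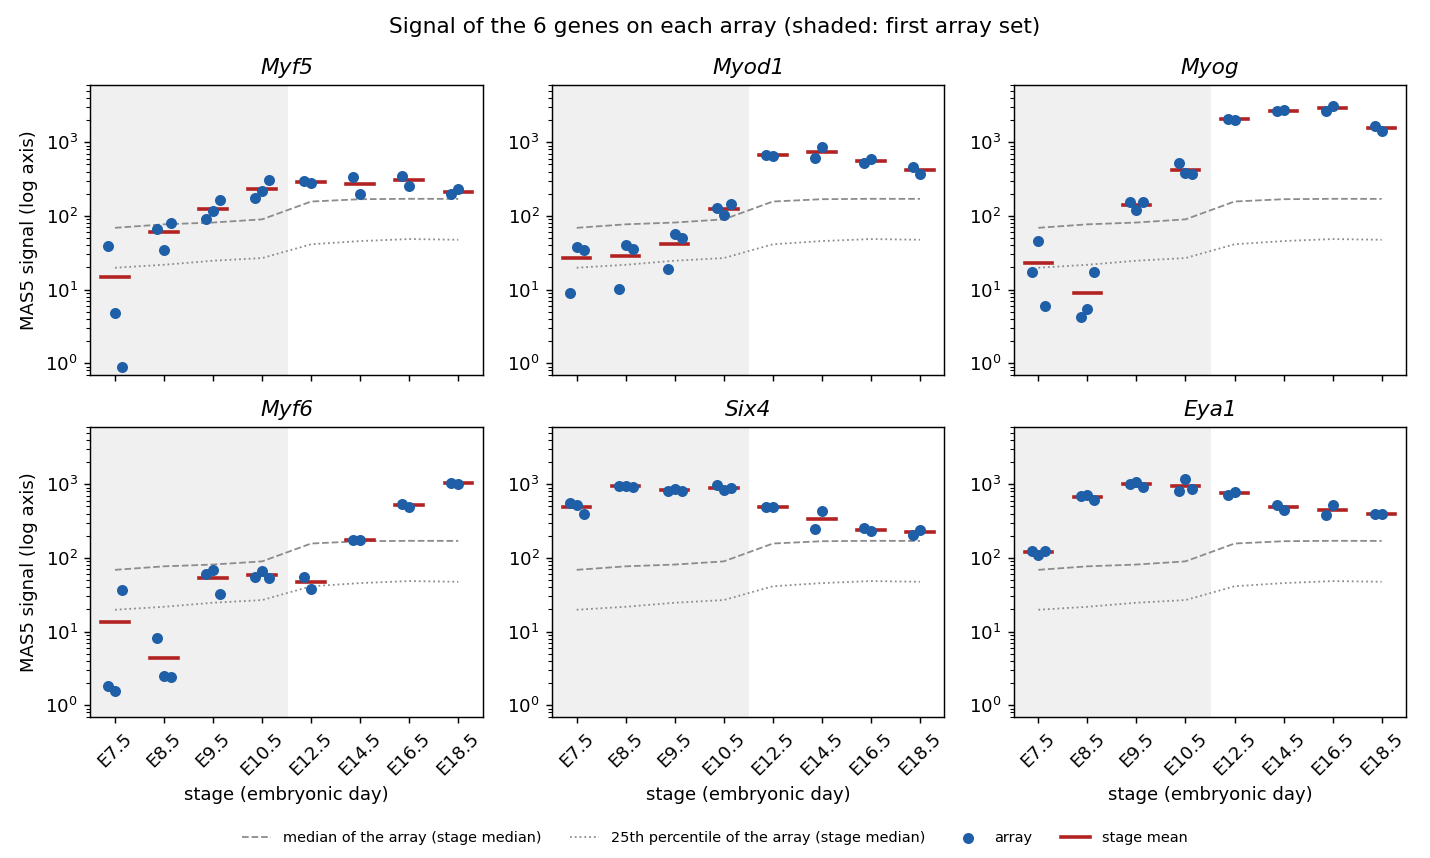
MAS5 signal (log axis) of the 6 genes at the 8 stages, each gene by the probe set that stood for it. There is a point for each of the 20 arrays and a red bar at each stage mean. Dashed and dotted lines give the median and the 25th percentile of the arrays of a stage, and shading marks the early array set. Six4 and Eya1 are highest between E8.5 and E10.5, Myog lies above the median from E9.5 on, Myod1 from E10.5 and Myf6 from E14.5, and Myf6 is highest at E18.5.

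All 6 genes varied over the 8 stages in the moderated F test, with adjusted p-values between 1.2e-15 for Myog and 1.1e-07 for Myf5. Of all genes tested, 91% passed that test, so the count of 6 is near that background. Their highest stage means fell on different stages, Six4 at E8.5, Eya1 at E9.5, Myod1 at E14.5, Myf5 and Myog at E16.5 and Myf6 at E18.5. Those stages held the highest mean of 8.71%, 5.64%, 8.47%, 9.55% and 24% of all genes tested. The order within a gene was not always resolved. Each of the 5 highest stages of Myf5 overlapped its neighbour in the order, the 3 stages from E8.5 to E10.5 of Six4 did not pass the test between any of them although its E9.5 arrays lay below those of E8.5, and the 4 late stages of Myod1 did not pass the test between any neighbours. Myog at E16.5 and E14.5, 2881 ± 289 and 2688 ± 56.3, overlapped too.

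The calls of the members were spread along the series, step by step. At E8.5 against E7.5, 2 of 6 rose, Eya1 and Myf5, where 6.27% of all genes tested rose. At E9.5 against E8.5, 2 of 6 rose, Myog and Myf6, where 2.49% rose. At E10.5 against E9.5, 2 of 6 rose, Myod1 and Myog, where 3.15% rose. None of the 6 fell at these 3 steps, and Six4 and Eya1 changed by 0.11 and -0.08 at the third. At E12.5 against E10.5, 2 of 6 rose, again Myod1 and Myog, where 10.6% of genes rose. At E14.5 against E12.5, 1 of 6 rose, Myf6, where 3.28% of genes rose, and at E16.5 against E14.5 it was again 1 of 6, Myf6, where 3.6% rose. At E18.5 against E16.5, 0 of 6 were called by limma at 2-fold, where 4.29% of genes were, while 2 had an unadjusted p below 0.05, Myog and Myf6, and of these Myog had an adjusted p below 0.05.

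**Figure D2:**
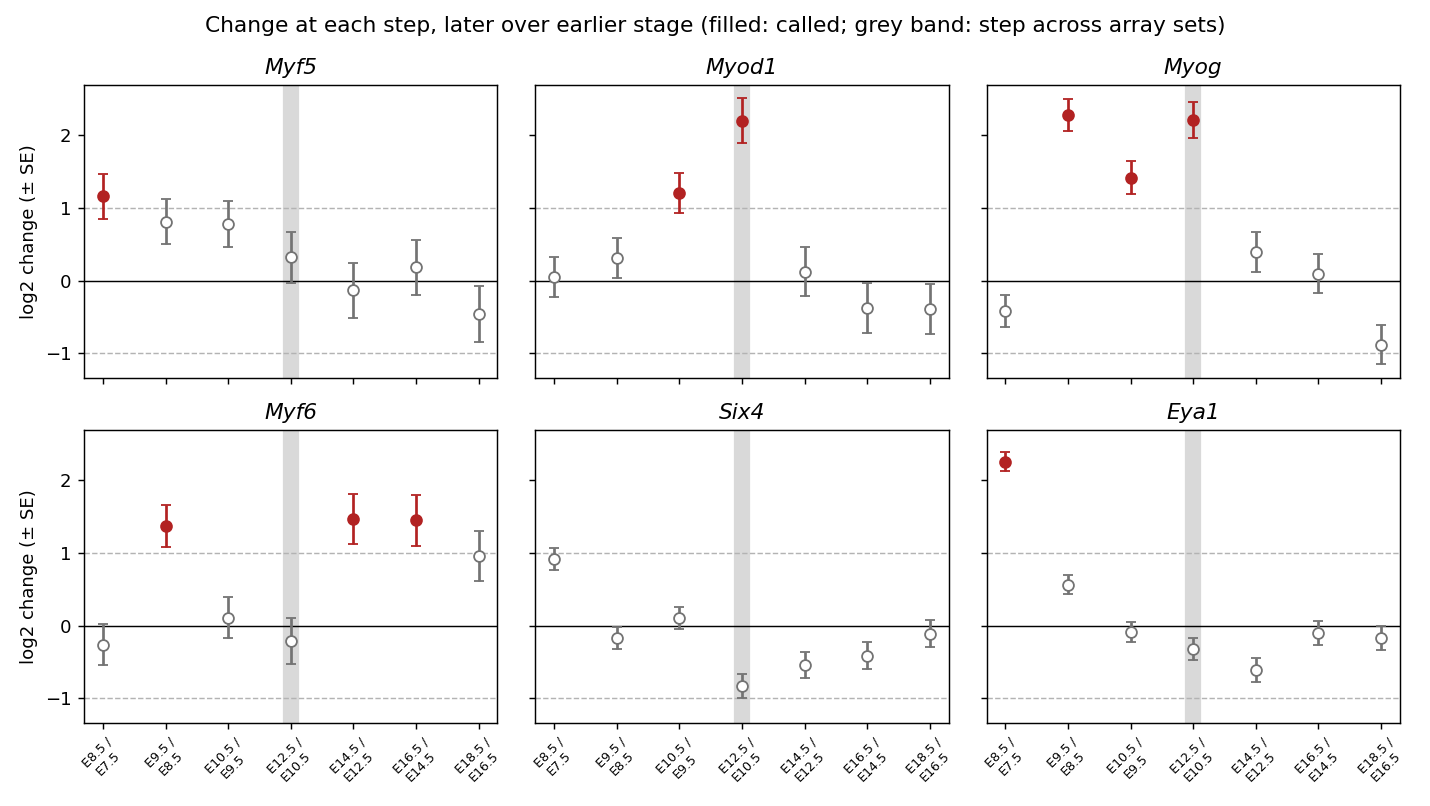
Change of each gene at the 7 steps between consecutive stages, in log2(signal + 25.9), later stage minus earlier, with bars of 1 SE. Filled red points are called, and the grey band marks the step from E10.5 to E12.5, where the array set changes as well. The calls pass from Eya1 and Myf5 over Myog, Myf6 and Myod1 to Myf6 alone.

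The step of E12.5 against E10.5 is the one where the array set changes as well. The median of all genes tested moved by 0.12 there as deposited, by -0.11 after quantile normalization and by -0.11 after scaling to the 75th percentile. Myod1 was at 1.77 and Myog at 2.24 after quantile normalization, and both were at 1.96 after the scaling. Both treatments rescale whole arrays, and stage and array set cannot be told apart at this step with or without them. Six4 was at -0.83 ± 0.17 with an adjusted p of 4.3e-04, under 2-fold as deposited, and at -1.06 and -1.08, past 2-fold, after the same treatments. Myf5 changed by 0.32, Myf6 by -0.21 and Eya1 by -0.32, and none of them passed.

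Over the early array set, E10.5 against E7.5, 5 of the 6 genes rose, where 16% of all genes tested rose and 7.49% fell. Myog rose by 3.28 ± 0.22, Myf5 by 2.75 ± 0.31, Eya1 by 2.74 ± 0.13, Myod1 by 1.57 ± 0.28 and Myf6 by 1.21 ± 0.28, each with an adjusted p of 9.9e-04 or less. Six4 was at 0.85 ± 0.15 with an adjusted p of 6.0e-05 and under 2-fold. The median of the 6 was 2.15, against 0.11 for all genes tested, and that of all genes moved to 0.01 after quantile normalization and to -0.06 after the scaling. With a pseudocount 4 times larger 3 of the 6 were called, Myod1 at 0.82 and Myf6 at 0.48 no longer among them. Genes of extraembryonic tissue and decidua were at a summed signal of 2108 to 3078 on the E10.5 arrays, against 95815 to 104049 on the E7.5 arrays, for 10 genes. All 9 of those tested fell, with a median change of -6.57. Their part in the E7.5 values of the members was not tested.

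Over the late array set, E18.5 against E12.5, Myf6 rose and Six4 fell, where 15.2% of all genes tested rose and 6.44% fell. Myf6 averaged 1033 ± 21.5 at E18.5, against 47.2 ± 12.4 at E12.5, the reverse of the course of Six4, which averaged 222 ± 24.0 at E18.5, against 492 ± 9.57 at E12.5. Eya1 changed by -0.88 ± 0.17 with an adjusted p of 1.6e-04, under 2-fold as deposited and past it, at -1.04, after quantile normalization. Myod1, Myog at -0.39 ± 0.27 and Myf5 at -0.41 ± 0.38 did not pass (adjusted p = 0.12, 0.24 and 0.39). The median of the 6 was -0.53, against -0.09 for all genes tested.

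Genes measured by several probe sets did not always give 1 course. The second probe set of Myod1, 1447675_x_at, read 1.18 to 49.5 over the 20 arrays and was above the array median on 0 of them, so that it failed the filter. Averaging it with the first brought Myod1 to 0.81 at E10.5 against E7.5 and to 0.54 at E10.5 against E9.5, both under 2-fold. Six4 had 4 probe sets, of which 1425767_a_at stood for the gene. At E18.5 against E12.5, 1456862_at changed by -1.31 ± 0.16 and 1439753_x_at by -1.41 ± 0.23, both called, and the dim 1427701_a_at by -0.27 ± 0.34. At E12.5 against E10.5 the first of these was at -0.20 ± 0.15, the second at 0.14 ± 0.21 and the third at -0.38 ± 0.31, none of them passing. The values of Six4 at E8.5 against E7.5 were 1.03 ± 0.13 for 1456862_at and 1.06 ± 0.19 for 1439753_x_at, which were called, and 0.27 ± 0.28 for 1427701_a_at, which was not.

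Eya1 had 3 probe sets that passed the filter, and 1 of them differed. 1421727_at followed 1457424_at, at 1.69 ± 0.33 for E8.5 against E7.5, called, and at -1.07 ± 0.40 for E18.5 against E12.5, called. 1443117_at read 231 and 161 at E12.5, with no array up to E10.5 above 61.5, and averaged 196 ± 49.7 at E12.5, against 36.7 ± 21.9 at E10.5, a rise of 1.86 ± 0.33 with an adjusted p of 1.6e-04, whereas the other probe sets were at -0.32 and -0.10 in the same comparison. Which transcripts each Eya1 probe set reads was not analysed here.

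**Figure D3:**
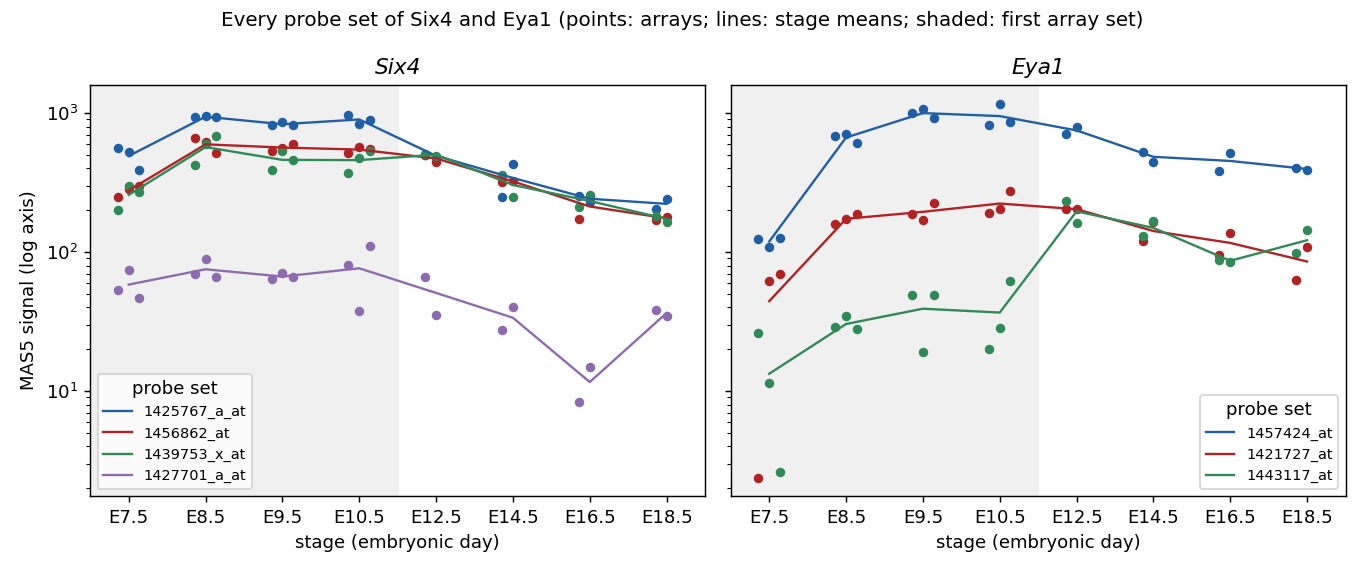
MAS5 signal (log axis) of the 4 probe sets of Six4 and the 3 of Eya1 by stage, with points for arrays, lines through stage means and shading for the early array set. The probe set 1443117_at of Eya1 is higher at E12.5, at 161 and 231, than on any array up to E10.5, while the other 2 of Eya1 show no such step.

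The genes that lie around the members in the muscle programme were described as lists. Of other upstream regulators, 19 of 21 listed genes were tested, and 12 rose and 0 fell at E10.5 against E7.5, with a median change of 1.71. The background for this and the following lists was 16% of all genes rising and 7.49% falling in that comparison, with a median of 0.11. Meox2, a homeobox factor of limb muscle precursors and somites, rose by 3.17 ± 0.17, and Pax7, which marks muscle progenitors and dorsal neural tube, by 2.75 ± 0.21. Eya4 rose by 2.72 ± 0.17 and Dach2, a nuclear cofactor in the same network, by 2.54 ± 0.18. At E18.5 against E12.5, 1 of the 19 rose and 4 fell, with a median of -0.79, where 15.2% of all genes rose and 6.44% fell, with a median of -0.09. Dach1 fell with a change of -1.87 ± 0.40, Dach2 of -1.25 ± 0.21 and Pax7 of -1.22 ± 0.25. Tcf21, a factor of mesenchyme, kidney and lung as well as of head muscle precursors, rose by 1.21 ± 0.11. Without the first E18.5 array 8 of them were called, against 5 with it.

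Dimerisation partners, cofactors and inhibitors of the myogenic factors were tested for 19 of 22 listed genes. At E10.5 against E7.5, 12 rose and 1 fell (16% and 7.49% of all genes), with a median of 1.36. The genes with the largest changes included the inhibitors Id4, at 3.95 ± 0.17, Twist2, at 3.50 ± 0.14, and Twist1, at 2.32 ± 0.10, and the 1 that fell was Fst, at -2.10 ± 0.14, which encodes an inhibitor of myostatin and activin. At E18.5 against E12.5, 1 rose and 6 fell (15.2% and 6.44% of all genes), with a median of -0.60. Twist1 fell with a change of -2.13 ± 0.13, Mdfi, which keeps myogenic factors out of the nucleus, of -1.54 ± 0.26, and Tcf3, which encodes E proteins that pair with the 4 factors, of -1.48 ± 0.17. Mef2c, a MADS box partner in muscle and heart, rose by 1.22 ± 0.13. Several of these genes act in many tissues of the embryo.

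Known targets in muscle, many of them at the membrane, the synapse or in fusion, were tested for 17 of 21 listed genes. The list, called membrane, synapse and fusion genes below, also holds genes of other parts of the fibre, such as Ckm, Casq1 and Des. At E10.5 against E7.5, 6 rose and 0 fell (16% and 7.49% of all genes), with a median of 0.80, among them Lrrn1 at 3.09 ± 0.13, which is also a gene of neural tissue, Mybph at 2.43 ± 0.19, Klhl41 at 1.41 ± 0.24 and Casq1 at 1.20 ± 0.12. At E12.5 against E10.5, 10 of the 17 rose and 0 fell, where 10.6% of all genes rose, the step at which Myod1 and Myog also rose and the array set changed. Mymk, the fusion protein myomaker, averaged 310 ± 1.33 at E12.5, against 42.2 ± 32.6 at E10.5. Chrna1, the acetylcholine receptor alpha subunit of the muscle synapse, averaged 339 ± 18.6 at E12.5, against 69.8 ± 24.5 at E10.5. These 2 genes were chosen after their values were seen. At E18.5 against E12.5, 7 rose and 1 fell (15.2% and 6.44% of all genes), with a median of 0.72. Ckm, the creatine kinase of muscle, averaged 23778 ± 590 at E18.5, against 54.2 ± 34.6 at E12.5, a change of 8.29 ± 0.46. Casq1, the calcium buffer of the sarcoplasmic reticulum, changed by 4.62 ± 0.15, Cav3 of the muscle caveolae by 3.19 ± 0.31 and Des, the intermediate filament desmin, by 2.69 ± 0.21.

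Structural genes of skeletal muscle were tested for 21 of 22 listed genes. At E10.5 against E7.5, 10 rose and 0 fell (16% and 7.49% of all genes), with a median of 0.91, led by the myosin light chain Myl1 at 4.37 ± 0.27, Tnnc2 at 3.93 ± 0.19, Tnni1 at 3.52 ± 0.11 and Mylpf at 3.26 ± 0.16. At E18.5 against E12.5, 20 rose and 0 fell (15.2% and 6.44% of all genes), with a median of 4.17. The perinatal myosin Myh8 averaged 25141 at E18.5, against 268 at E12.5, a change of 6.42 ± 0.27. The fast troponins Tnnt3 and Tnni2 changed by 6.26 ± 0.27 and 6.26 ± 0.41, and the myosin binding protein Mybpc2 by 5.22 ± 0.45. The summed signal of 22 genes was 1233 to 1294 on the E7.5 arrays, 6116 to 7079 at E8.5, 6213 to 6775 at E9.5 and 7729 to 9236 at E10.5. The higher sum at E8.5 came from part of the list. The median log2 level of the 22 genes averaged 5.86 at E7.5 and 5.85 at E8.5. At that step 4 of the 21 tested rose and 0 fell, with a median change of 0.17, where 6.27% of all genes rose. The summed signal was 19572 to 19798 at E12.5, 60419 to 65956 at E14.5, 124496 to 138283 at E16.5 and 243478 to 259517 at E18.5. Over the same late stages Myod1, Myf5 and Myog made no called change, and Myf6 was the 1 myogenic factor that rose.

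**Figure D4:**
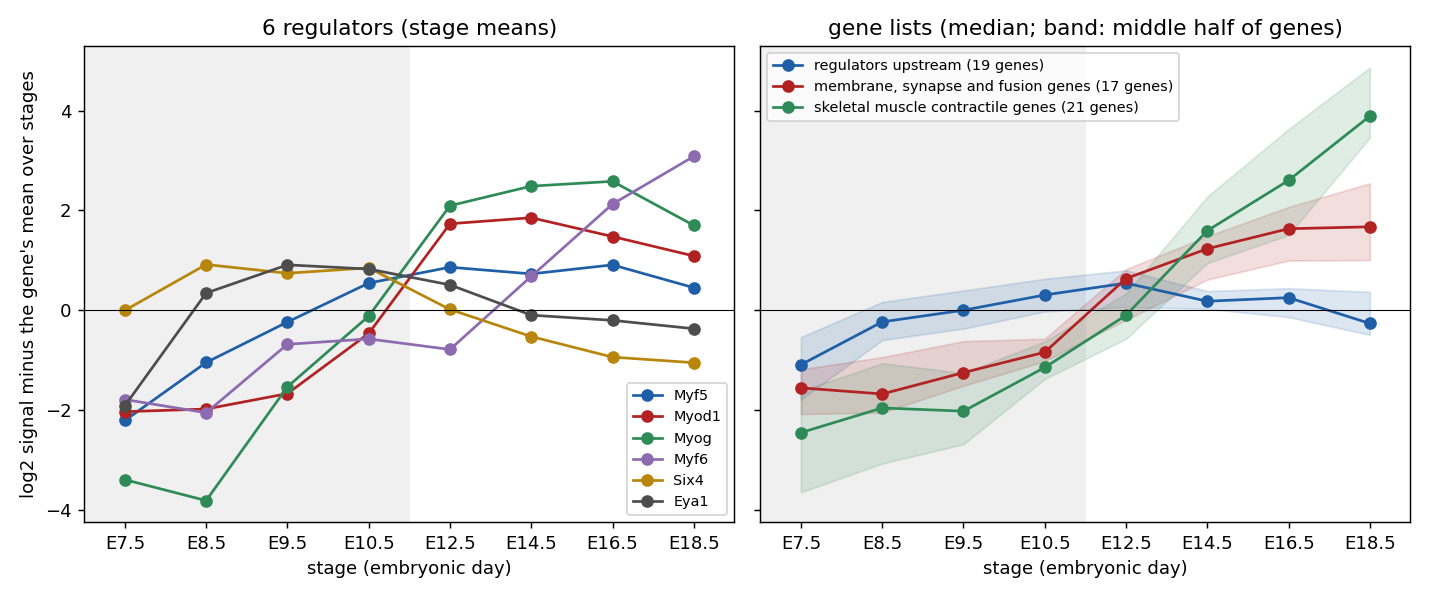
Stage means of log2(signal + 25.9) minus each gene's own mean over the stages, for the 6 genes on the left and for 3 lists on the right (line, median of the list, band, middle 50% of its genes). The median of the upstream regulators is highest at E12.5, while that of the structural genes is highest at E18.5.

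Markers of other tissues that share these genes moved as well. Cardiac muscle, which shares several structural genes with skeletal muscle and does not use the 4 myogenic factors, was measured by 12 genes. Their summed signal was 2249 to 2622 at E7.5, 25932 to 27501 at E8.5, 16839 to 20625 at E10.5, 12312 to 12504 at E12.5 and 17812 to 18885 at E18.5. At E8.5 against E7.5, 10 of 12 rose, where 6.27% of all genes rose. At E18.5 against E12.5, 3 rose and 1 fell (15.2% and 6.44% of all genes), with a median of 0.29. The heart myosin light chain Myl3 rose by 1.38 ± 0.17, Myh7, the myosin of heart and slow muscle fibres, by 1.08 ± 0.15, and the cardiac troponin Tnnt2 by 1.03 ± 0.13, while Hand2, a heart and limb factor, fell with a change of -1.94 ± 0.11. The part of heart in the early and in the late rise of the shared structural genes was not tested. Acta1, the skeletal alpha-actin that is also made in the early heart, averaged 1460 ± 105 at E8.5, against 169 ± 5.88 at E7.5. Placode and sensory genes, which share Six4 and Eya1, were measured by 9 of 13 listed genes. Of these 7 rose and 1 fell at E10.5 against E7.5 (16% and 7.49% of all genes), with a median of 2.70, and 0 rose and 5 fell at E18.5 against E12.5 (15.2% and 6.44% of all genes), with a median of -1.13. Their summed signal was 4560 to 5004 at E10.5, 4773 to 5049 at E12.5 and 1616 to 1713 at E18.5. Kidney genes, most of them of its mesenchyme, were tested for 10 of 12 listed genes. Of these 7 rose and 1, Cited1, fell at E10.5 against E7.5, with a median of 1.55. At E18.5 against E12.5, 0 rose and 3 fell, with a median of -0.76. The shares of all genes were the same as for the placode and sensory genes. The part of these tissues in the courses of Six4 and Eya1 was not tested.

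The likeness of the courses was measured by Pearson's r over the 8 stage means, as a description over points that share their arrays and array sets. Myod1 and Myog were closest among the members, at r = 0.97, followed by Myf5 and Myog at 0.90 and Myf5 and Myod1 at 0.85. Six4 ran against Myf6 at -0.84 and against Myod1 at -0.72, and Six4 and Eya1 had 0.47. Among all genes tested, Rnf157, Tubb2b and Gap43, the last of these a growth cone protein of neurons, were most like Myf5 at r = 0.99 each. Actl6b at 0.999, Sgip1 at 0.998 and Nap1l3 at 0.998 were most like Myod1. Over the 12 early arrays these 3 had r = 0.68, 0.84 and 0.75 with Myod1, and over the 8 late arrays 0.89, 0.76 and 0.52. Cdc42ep3 at 0.996, Cmip at 0.995 and Mapt, the neuronal protein tau, at 0.994 were most like Myog. Over the 8 late arrays alone Tubb2b and Myf5 had r = 0.18 and Mapt and Myog 0.63, whereas over the 12 early arrays they had 0.90 and 0.96. Slc30a4, Dusp22 and Lmod2, a leiomodin of striated muscle, were most like Myf6 at 0.99 each, and Lmod2 and Myf6 had 0.99 over the late arrays alone and 0.51 over the 12 early ones. Cand2, Flywch1 and Map2k6 were most like Six4 and Galc, Manea and Tspan3 most like Eya1, at 0.99 each.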

How the data were processed

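The deposited values are MAS5 signals of unit intensity, 1 per probe set and array, on a linear scale. The authors made them with MAS5, per the submitters' processing notes, whose version and settings are not given in the sources used here. With the lowest and highest 2% of its values set aside, each array averaged 500, which shows a scaling by the authors, and nothing was added to it in the main analysis. Arrays carry no count depth.

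Of 45101 probe sets (64 of them controls, left out), 34958 had 1 gene symbol, 932 several and 9211 none. Of several probe sets of a gene, the brightest by mean log2 value was used. Genes above the array median on at least 2 arrays were tested (14044 of 18193). The pseudocount, 25.9, is the middle of the 20 arrays' own values at the 25th percentile. A linear model with 1 mean for each stage was fitted to all 20 arrays (limma 3.58.1, R 4.3.3, with lmFit, contrasts and eBayes with a trend, 12 residual degrees of freedom), with two-sided tests and Benjamini-Hochberg adjustment over all genes tested in a comparison. The same fit was run on 25550 single probe sets. Sequences and the gene table are from RefSeq, and coordinates are printed for promoters only. Motifs were searched and figures drawn with Python 3.11.15.

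The members, gene lists and tests were chosen with earlier results of these data known. Named genes were the 6 members, up to 4 called genes of a list with the largest change in each long comparison, and the 3 genes most like each member. The labels call the samples biological replicates, and the p-values rest on the spread between pools of embryos. As alternatives, signals were quantile normalized or scaled by the 75th percentile of the array, the pseudocount was divided or multiplied by 4, the filter was dropped or raised to the 75th percentile, all probe sets of a gene were averaged, the minimum fold was dropped, the 2 stages were fitted alone, a replicate block was added and each array was left out in turn. Fits of 1 array set alone were added after the data were seen.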

Additional observations from a re-analysis of the deposited data

How the results depend on the processing

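Of the member changes that were followed through the alternatives, none reversed its direction. Not every step of every member was followed. The step of Eya1 at E12.5 against E10.5, where its probe sets differed in direction, was left out. Of the values followed for single members, 704 kept their side of the threshold, 24 lost a call and 11 gained one. With a pseudocount 4 times larger, 3 members (5 as reported) were called at E10.5 against E7.5, 1 (2 as reported) at each of E8.5 against E7.5, E9.5 against E8.5, E10.5 against E9.5 and E18.5 against E12.5, and 0 at E14.5 against E12.5, and 2 upstream regulators at E18.5 against E12.5 and 2 membrane, synapse and fusion genes at E10.5 against E7.5. With a pseudocount 4 times smaller 0 members were called at E14.5 against E12.5 and at E16.5 against E14.5, and after quantile normalization 0 at E14.5 against E12.5. A filter at the 75th percentile left fewer genes and took Myf5 out of the test. Its highest signal, 351, was below the lowest 75th percentile of any array, 416. The counts under this filter therefore lack Myf5. They were 1 member at E8.5 against E7.5, and 4 upstream regulators at E10.5 against E7.5 and 2 at E18.5 against E12.5. The arrays of the 2 stages alone gave 1 member at E8.5 against E7.5, and the mean of all probe sets 1 at E10.5 against E9.5. With no minimum fold, 2 members were called at E14.5 against E12.5 and 1 at E18.5 against E16.5, 14 upstream regulators and 15 partners and inhibitors at E18.5 against E12.5, and 10 membrane, synapse and fusion genes at E10.5 against E7.5. Leaving out 1 array at a time gave 1 to 3 members at E8.5 against E7.5, 1 to 2 at E10.5 against E9.5, 0 to 1 at E14.5 against E12.5, 0 to 1 at E16.5 against E14.5, 1 to 2 at E18.5 against E12.5 and 4 to 8 upstream regulators at E18.5 against E12.5. Where a cause is not in the setting itself, the cause was not tested. Arrays with the same replicate number share only a number in the labels: their deviations correlated at r = -0.07 to 0.28 (62 pairs), and those with different numbers at -0.21 to 0.10 (112 pairs). With 2 arrays a stage the deviations mirror each other, so the pairs of late arrays repeat each other. Deviations cancel within a stage, so these pairs are not independent and the 2 ranges are not separate readings. Within the early array set the arrays numbered 1 correlated at 0.14 to 0.28 (6 pairs), and 8 of its 12 arrays were closest to their own number, which is a hint from the data. The first array had the lowest median signal at each of these 4 stages. With the replicate block 6 members were called in the F test, 5 at E10.5 against E7.5 and 2 at E18.5 against E12.5, as without it, and no other count of members changed. Single array sets fitted alone gave the same counts of members. Signals near the background of E7.5 and E8.5 limit the early values of Myf5, Myod1, Myog and Myf6, and 2 arrays a stage limit the late steps.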
